A study of Zea mays with 6 samples.

Results

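The protein-coding genes of the plastid genome were taken as every row of the deposited gene table placed on chromosome Pt and typed as protein-coding. They numbered 110 of the 45953 rows. Maize (Zea mays) leaf RNA was sequenced in 6 libraries, 3 from each of 2 groups. The LW group was labelled as grown in drought under negative pressure irrigation, in which the soil draws water from a continuous supply held below air pressure. The CW group was labelled as moist soil under drip irrigation, so soil water and the type of irrigation differed together and their effects cannot be told apart. The labels give no cultivar, plant age or leaf position, and nothing in them says that replicates came from separate plants, so each p-value reflects only how far these samples scatter, and that scatter may be technical. Libraries are named by group and replicate number, CW1 to CW3 and LW1 to LW3.

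Chloroplasts keep a small circular genome that encodes the core subunits of the photosynthetic complexes, the large subunit of Rubisco and part of the machinery that expresses them. It is read by a bacterial-type RNA polymerase whose core subunits are plastid genes and whose sigma factors are nuclear genes, and by a phage-type polymerase encoded in the nucleus. Most of the remaining subunits of the same complexes are nuclear genes, whose proteins are imported. Plastid transcripts mostly lack the long poly(A) tails of nuclear mRNA. The labels' protocol names poly(A) selection and, in the same passage, a poly(A)- fraction, so how plastid transcripts entered these libraries is not settled and a plastid level here is not a measure of plastid RNA per cell. In bulk leaf RNA, fewer cells of a type and less RNA per cell cannot be told apart.

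By complex, the 110 rows comprised 5 for photosystem I, 2 for its assembly factors, 15 for photosystem II, 6 for the cytochrome b6f complex, 12 for the NDH complex, 6 for ATP synthase, 4 for RNA polymerase and 25 for the ribosome. A further 17 rows had another gene symbol, among them rbcL, and 18 rows had none and are named by their identifiers. The inverted repeat of the plastid genome holds some genes in duplicate, and 22 rows were the 2 copies of 11 symbols. Of the 110 rows, 24 overlapped another row, 74 had a count in every library and 4 were listed at 0 in every library.

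Library totals ranged from 42927751 to 64067543 estimated counts in CW and from 62327457 to 84084375 in LW. Levels are given as counts per 1000000 on TMM-scaled library sizes (CPM) or, between genes, as deposited FPKM, which is per length. Bundle sheath markers (the Rubisco small subunits, phosphoenolpyruvate carboxykinase and a malic enzyme) summed to 25279, 32197 and 8985 CPM in CW and 4980.4, 3149 and 3899 CPM in LW, with 0 of 4 rows at 0 and CW3 well below the other CW libraries. The 2 Rubisco rows carried most of the sums of CW1 and CW2, at 20600 and 25137 CPM. In CW3 they stood at 4404 CPM, and the low sum of CW3 came mainly from them. In LW1, LW2 and LW3 they stood at 1313, 894 and 1850 CPM, below phosphoenolpyruvate carboxykinase1 in each. phosphoenolpyruvate carboxykinase1 stood at 4625, 7014 and 4519 CPM in CW and 3575, 2143 and 1958 CPM in LW, and the malic enzyme row (Zm00001d037961) went the other way, at 55.0, 45.1 and 62.5 CPM in CW and 92.7, 112 and 90.3 CPM in LW. Neither of these 2 was called. Mesophyll markers (carbonic anhydrases, phosphoenolpyruvate carboxylase and pyruvate orthophosphate dikinase) summed to 6114, 7378 and 8920.0 CPM in CW and 3603, 9007 and 3827 CPM in LW, with 1 of 17 rows at 0, and the groups overlapped. Sums for dividing-cell markers lay between 1009 and 1099 CPM in CW and between 748 and 875 CPM in LW. Of the 62 rows 18 were at 0. But 18 of 40 tested rows had a negative log2 fold change and the median was 0.13. Senescence markers gave 206 to 275 CPM in CW and 99.4 to 130 CPM in LW, with 0 of 7 rows at 0. There 4 of 7 rows had a negative log2 fold change and the median was -0.03. At an adjusted p under 0.05 edgeR called 2 of the 40 dividing-cell rows and 2 of the 7 senescence rows lower. It called 0 of either higher. Over all tested genes 2.4% were called lower and 2.84% higher. The part of these markers in the results below was not tested.

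Plastid protein-coding rows took a small and variable share of each library. The share was 0.349%, 0.263% and 0.0582% of counts in CW1, CW2 and CW3. In LW1, LW2 and LW3 it was 0.0456%, 0.0105% and 0.0235%. The groups did not overlap, yet CW3, the lowest CW library, was only 1.28 times LW1, the highest LW library. CW spanned a 5.99-fold range, with the mean of CW1 and CW2 standing at 5.26 times CW3, and LW spanned 4.34-fold. Group means were 0.224% ± 0.149 in CW and 0.0265% ± 0.0178 in LW (SD, n = 3), a ratio of 8.42, and the exact two-sided permutation test gave p = 0.1, the smallest that 3 against 3 allows. Leaving out the 22 rows whose symbol has 2 copies gave a ratio of 8.51, and summed FPKM gave 7.46. Rows of the inverted repeat without a symbol stayed in. ndhC, rbcL and psbA held 59.2%, 79.8% and 54.3% of the plastid counts in CW1, CW2 and CW3 and 55.7%, 38.9% and 40.2% in LW1, LW2 and LW3. Without these 3 genes, a choice made after seeing the data, the shares were 0.142%, 0.0532% and 0.0266% in CW and 0.0202%, 0.00643% and 0.0140% in LW, a ratio of 5.46 with the same order of libraries.

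**Figure D1:**
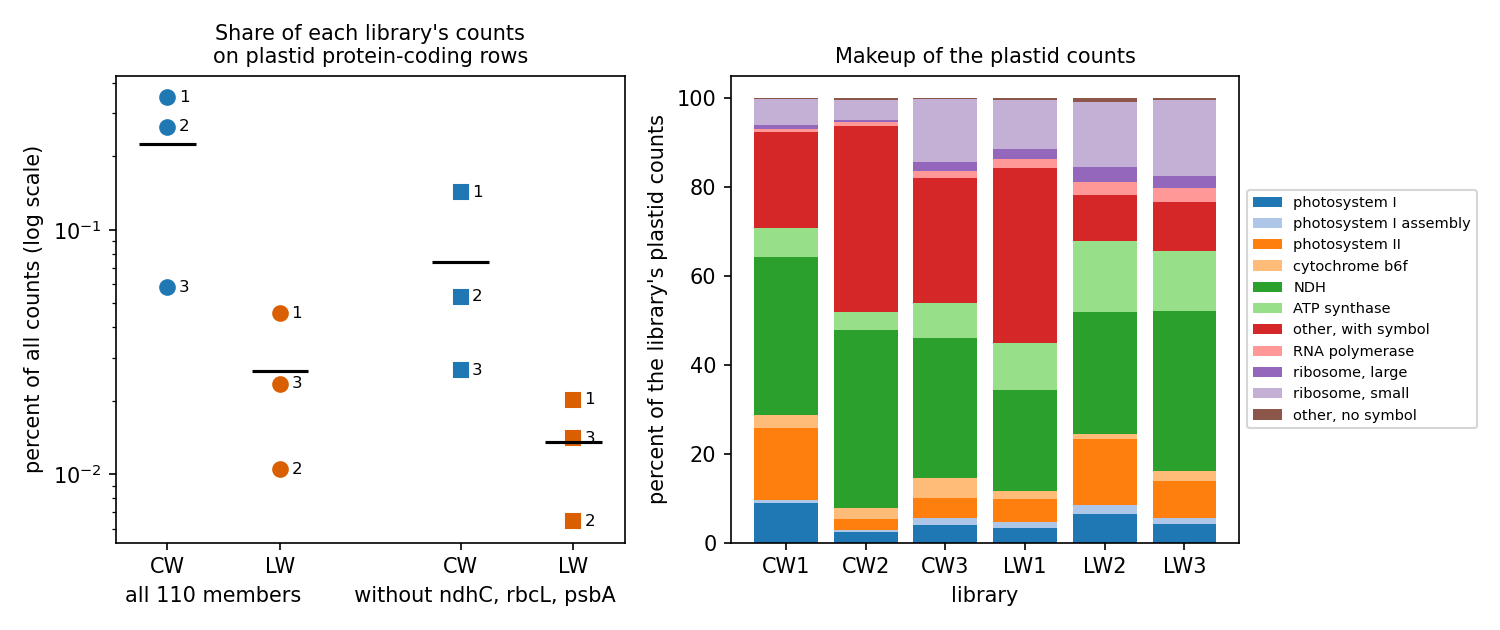
Left, percent of each library's counts on the plastid protein-coding rows (log scale), with and without ndhC, rbcL and psbA; points are libraries marked by replicate number and lines are group means. Right, how the plastid counts of each library divide among the complexes; CW3 lies nearest to LW1 on the left, and rbcL and ndhC make the red and dark green blocks large.

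Mitochondrial rows differed among the libraries in part alongside the plastid rows. The 149 mitochondrial protein-coding rows, which leave out rows named as chloroplast-derived, summed to 135, 99.6 and 27.5 CPM in CW and 42.7, 11.3 and 30.7 CPM in LW. Here the groups overlapped, CW3 again stood below CW1 and CW2, and LW2 was the lowest library. Of 43 tested mitochondrial rows 39 were fitted below CW, against 47.4% of all tested genes, and the median over the 43 was -1.77 (log2). edgeR called 0 of the 43, where 2.4% of all tested genes were called lower. At an unadjusted p under 0.05, 6 of the 43 were lower, against 11.4% of all tested genes. Among all 149 rows DESeq2 called 4 lower, against 7.65% of all genes with an adjusted p. These counts of calls do not set the mitochondrial rows apart from other genes. The plastid counts were 29.1, 31.0 and 23.3 times the mitochondrial ones in CW and 10.1, 7.74 and 6.71 times in LW. This ratio, chosen after seeing the data, varied far less among the CW libraries than the plastid share did, at 27.8 ± 3.98 in CW and 8.20 ± 1.76 in LW (SD, n = 3), and its exact two-sided permutation p was also 0.1.

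Gene by gene, the fitted level was lower in LW for every tested plastid row with TMM scaling and for all but 2 with library totals alone, and few single differences passed the test. edgeR's quasi-likelihood test, run over all 24704 genes that passed its low-count filter, covered 77 of the 110 rows. At a threshold of 0.05 on the adjusted p it called 5 of them lower in LW, where 2.4% of all tested genes were called lower. These were atpH, ndhC, petG, petL and rps4. None was called higher, against 2.84% of all tested genes, and 72 of the 77 were not called. At an unadjusted p under 0.05, 49 rows were lower, against 11.4% of all tested genes, and 0 rows were higher, against 13.3%. All 77 log2 fold changes were negative with TMM factors, against 47.4% of all tested genes, but with library totals alone rpl16 (0.23) and rps7 copy 1 (0.31) were positive. The median log2 fold change was -2.80 (range -6.11 to -0.06) and the median of all tested genes was 0.06. With library totals alone these medians were -2.47 and 0.42. In 46 of the 77 tested rows all LW libraries lay below all CW libraries, which held for 14.9% of all tested genes, and in 0 rows did all LW libraries lie above. Over all 110 rows this order held for 52. A row low in LW can pass the low-count filter through CW alone. Of the 33 rows that were not tested, several are given below by their counts. Others are given only by their highest level or without values.

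The calls depended on which libraries were used. The median coefficient of variation behind the fit was 0.891 for the plastid rows and 0.451 for all tested genes. Without CW3, 30 plastid rows were called lower, the 5 among them, where 4.64% of all tested genes were called lower. Without CW1 the count was 0, where 0.336% of all tested genes were called lower. Leaving out CW2 or any 1 of the LW libraries also gave 0, and there 0 genes of the whole table were called lower. At an unadjusted p under 0.05, 25, 49 and 60 plastid rows were lower without CW1, CW2 and CW3, against 9.24%, 8.33% and 12.7% of all tested genes. Without LW1, LW2 and LW3 the counts were 57, 38 and 32, against 9.24%, 8.94% and 7.76%. Without CW2, 2 rows, rpl16 and rps7 copy 1, were higher at that threshold, against 11.8%. Across the 6 fits that left out 1 library each, edgeR adjusted p-values ran from 0.0183 to 0.161 for atpH, from 0.0191 to 0.176 for ndhC, from 0.0234 to 0.151 for petG, from 0.0258 to 0.151 for petL and from 0.0305 to 0.159 for rps4. For each of the 5 the lowest value came without CW3 and the highest without LW3. DESeq2 called 53 plastid rows lower, including these 5, where it called 7.65% of all genes with an adjusted p lower. On FPKM, limma called 9 rows lower with a pseudocount of 1, against 2.85% of its tested genes, 10 with a pseudocount of 0.1, against 2.62%, and 5 without a filter on low values, against 1.21%. The first 2 of these counts included all 5 genes called by edgeR. DESeq2 called 0 plastid rows higher, against 9.52% of all genes with an adjusted p, and the 3 limma fits called 0, against 11.5%, 9.81% and 5.81%. At an unadjusted p under 0.05 these 4 counts were also 0, against 14.1% of all genes for DESeq2 and 26.1%, 25.7% and 21.2% for limma. In edgeR with RLE factors the 5 genes were called, against 2.35% of all tested genes, and with library totals alone they were called against 1.4%. Without the low-count filter psaB and rps7 copy 2 joined them, against 1.84%. With the replicate number as a block 0 plastid rows were called, against 0.00405% of all tested genes, and 43 were lower at an unadjusted p under 0.05, against 8.54%. The counts by complex and list below stand against the same shares over all genes. These are 2.4% called lower by edgeR, 11.4% lower at an unadjusted p under 0.05 and 7.65% called lower by DESeq2.

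**Figure D2:**
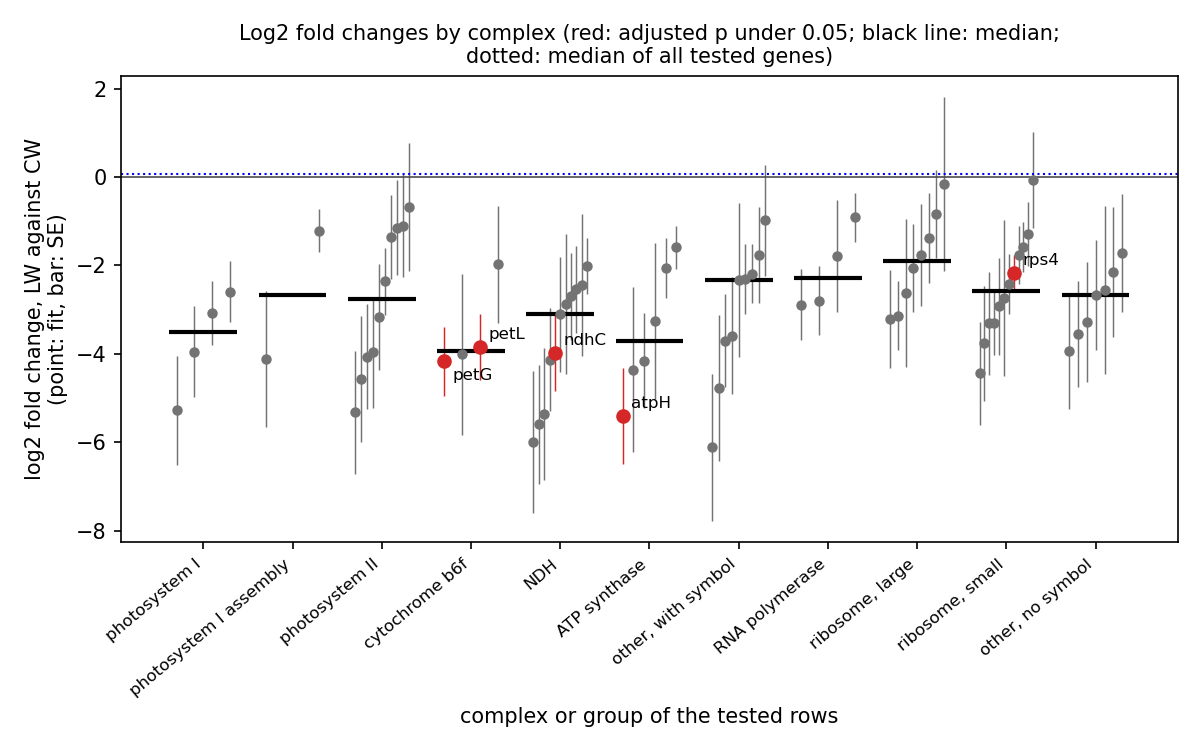
Log2 fold change of LW against CW for the 77 tested plastid rows, by complex, with the standard error of each fit. Red points are the 5 rows with an adjusted p under 0.05, black lines are the medians of each complex and the dotted line is the median of all tested genes at 0.06.

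The libraries of a group kept a common order over most rows. Among the CW libraries, 79 of the 106 rows with any count were highest in CW1 and 81 were lowest in CW3. Among the LW libraries, 68 rows were highest in LW1 and 65 were lowest in LW2. Levels ran in the order CW1, CW2, CW3 for 67 rows. In 43 rows CW3 lay below the highest LW library, and in 84 rows both CW1 and CW2 lay above all LW libraries. The same counts over all genes are not given here, so these counts cannot set the plastid rows apart from other genes. The order of the rows by FPKM was shared between libraries, with Spearman's rho over the 110 rows between 0.756 and 0.787 within CW, between 0.823 and 0.868 within LW and between 0.631 and 0.856 across the groups. These rows share libraries and lengths, so the values describe the libraries only.

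**Figure D3:**
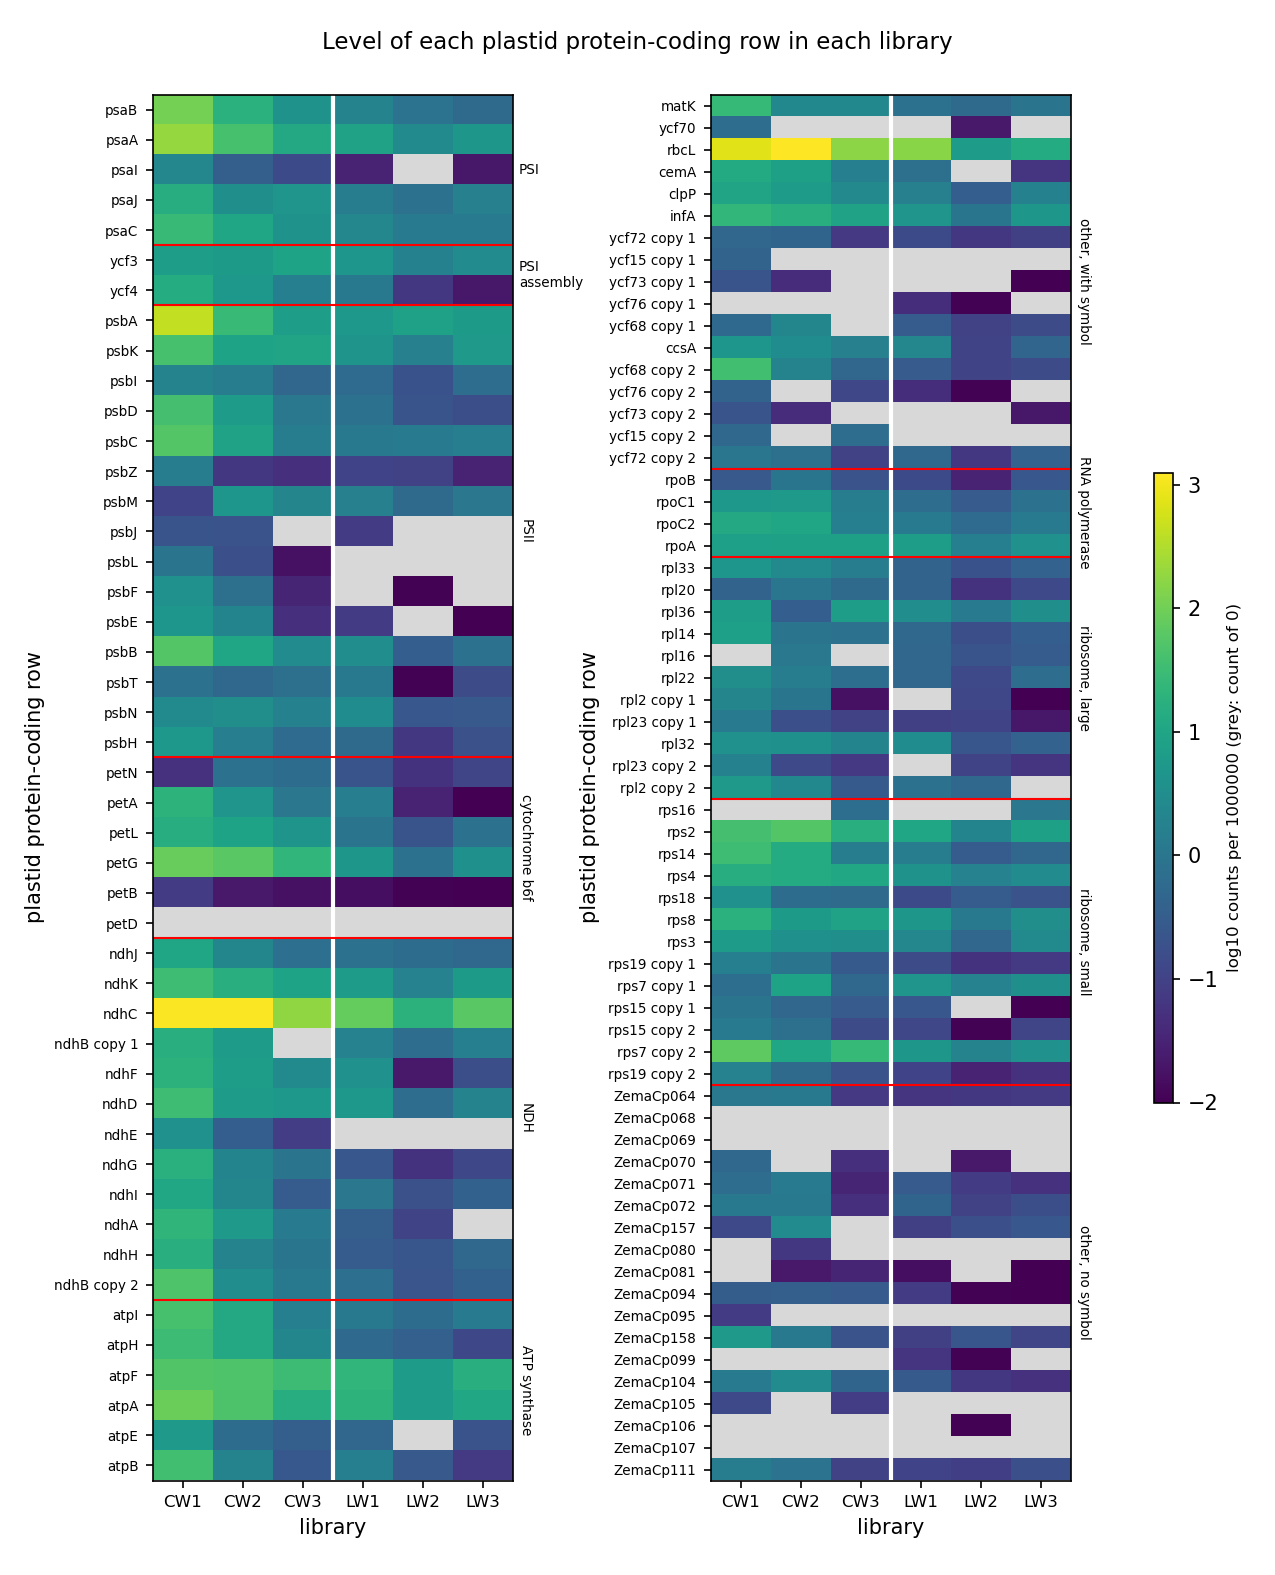
Level of the plastid rows reported here in each library as log10 CPM, grouped by complex and ordered by position within a group; PSI and PSII are photosystems I and II, and grey marks a count of 0. CW1 and CW2 are brightest in most rows, CW3 lies between them and LW, and ndhC, rbcL and psbA stand out.

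Photosystem I rows were low in every LW library. The complex passes electrons to ferredoxin, and its plastid genes encode the reaction-centre pair (psaA, psaB), the iron-sulphur subunit (psaC) and the small subunits psaI and psaJ. Their sum was 352, 73.6 and 25.4 CPM in CW and 14.1, 5.68 and 8.72 CPM in LW, so that CW1 exceeded CW3 by 13.9-fold while the groups did not overlap. psaB (Pt, 39119 to 41326) stood at 108, 18.3 and 4.26 CPM in CW and 1.92, 0.887 and 0.584 CPM in LW. Each LW library lay below every CW library, but the difference just missed the threshold (edgeR log2 fold change -5.28, SE 1.24, adjusted p = 0.0563). Its partner psaA (Pt, 41352 to 43604) stood at 198, 41.5 and 12.2 CPM in CW and 8.54, 2.67 and 5.08 CPM in LW, again without overlap (edgeR log2 fold change -3.95, SE 1.03, adjusted p = 0.0706). psaC stood at 27.4, 9.99 and 4.09 CPM in CW and 2.28, 1.29 and 1.34 CPM in LW (edgeR log2 fold change -3.08, SE 0.73, adjusted p = 0.0572). psaJ, the photosystem I gene with the highest mean FPKM over the 6 libraries and the smallest fold change of the complex, stood at 15.3, 3.50 and 4.67 CPM in CW and 1.35, 0.832 and 1.70 CPM in LW. Its groups did not overlap either, and CW2 and CW3 were close (edgeR log2 fold change -2.59, SE 0.69, adjusted p = 0.0727). psaI passed too few counts to be tested, at 88, 16 and 8 counts in CW and 2, 0 and 2 counts in LW. None of the 4 tested rows was called by edgeR, all 4 were lower at an unadjusted p under 0.05, and DESeq2 called all 5. Leaving out CW1 took the median log2 fold change of the complex from -3.51 to -2.20.

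The 2 assembly factors of photosystem I differed in how steady they were. ycf3, which helps to assemble the reaction centre, stood at 6.78, 6.05 and 9.08 CPM in CW and 4.89, 1.72 and 2.87 CPM in LW, and CW3 was here the highest library (edgeR log2 fold change -1.21, SE 0.49, adjusted p = 0.179). ycf4, another assembly factor, stood at 14.4, 5.22 and 1.56 CPM in CW and 1.16, 0.0657 and 0.0209 CPM in LW, with LW2 and LW3 close to 0 (edgeR log2 fold change -4.11, SE 1.54, adjusted p = 0.156). Neither passed edgeR's test, neither had overlapping groups, and both were lower at an unadjusted p under 0.05, and DESeq2 called ycf4.

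Photosystem II, which splits water, varied most among the CW libraries. Its sum was 643, 77.7 and 28.0 CPM in CW and 22.1, 12.8 and 16.8 CPM in LW, a 22.9-fold range within CW. psbA (Pt, 89 to 1150, minus strand) encodes the D1 protein, which is damaged by light and continually replaced. It made up most of the CW1 sum, but other rows varied widely too. CW1 was 58.6 times CW3 for psbA, 39.5 times for psbC and 35.2 times for psbD. For psbK it was 4.46 times CW3, and for psbM CW1 lay below CW3. psbA stood at 431, 27.8 and 7.35 CPM in CW and 5.33, 8.15 and 6.14 CPM in LW. CW1 lay far above every other library, and CW3 fell inside the LW range (edgeR log2 fold change -4.57, SE 1.42, adjusted p = 0.101). psbD, for the partner protein D2, stood at 39.3, 6.63 and 1.12 CPM in CW and 0.807, 0.208 and 0.167 CPM in LW, with no overlap (edgeR log2 fold change -5.33, SE 1.40, adjusted p = 0.0712). It shares 53 bases with psbC, for the antenna protein CP43, at 54.9, 8.74 and 1.39 CPM in CW and 1.16, 1.22 and 1.51 CPM in LW, where CW3 lay within the LW values. Reads in the shared bases cannot be assigned to either gene. psbB, for the antenna protein CP47, stood at 53.8, 10.6 and 2.92 CPM in CW and 3.17, 0.339 and 0.824 CPM in LW, and CW3 lay below LW1. In all, 10 of the 15 rows were tested and edgeR called 0, with 6 lower at an unadjusted p under 0.05, while DESeq2 called 9. psbK, for a small subunit, stood at 42.0, 9.21 and 9.43 CPM in CW and 4.35, 1.63 and 5.80 CPM in LW, without overlap and with CW2 and CW3 nearly equal (edgeR log2 fold change -2.36, SE 0.76, adjusted p = 0.109). Per length it was next to psbA in CW within the complex, at 86.4 ± 80.9 FPKM, and stood at 21.1 ± 11.2 FPKM in LW (SD, n = 3). psbT, also a small subunit, had the smallest difference of the complex at 0.841, 0.513 and 0.773 CPM in CW and 1.17, 0.0110 and 0.146 CPM in LW, with LW1 the highest library (edgeR log2 fold change -0.68, SE 1.45, adjusted p = 0.813).

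Several small photosystem II genes went to or near 0 in LW. psbE and psbF encode the 2 chains of cytochrome b559, and psbL and psbJ lie next to them. psbL had 35, 8 and 1 counts in CW and 0, 0 and 0 counts in LW. Against a floor of 3 counts in each LW library, its CW mean was at least 10.2-fold higher, or at least 2.67-fold without CW1, a check added after seeing the data. CW3, with 1 count, itself lay below that floor, so these bounds rest on CW1 and CW2. psbF had 147, 34 and 2 counts in CW and 0, 1 and 0 counts in LW and psbE 179, 88 and 3 counts in CW and 5, 0 and 1 counts in LW, so both had most of their counts in CW1 and CW2. None of these was tested, nor were psbJ and psbZ. psbJ had 8, 9 and 0 counts in CW and 5, 0 and 0 counts in LW. psbZ did not follow, with 53, 3 and 3 counts in CW and 7, 9 and 3 counts in LW. There LW1 and LW2 lay above CW2 and CW3 in counts. psbM went the other way within CW. It had 4, 219 and 121 counts in CW and 110, 54 and 99 counts in LW, so that CW1 was the lowest of the 6 libraries, and its neighbour petN showed the same low value in CW1. Both were picked out after their values were seen.

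The cytochrome b6f complex, which links the photosystems, held 2 of the 5 called genes, petG and petL, which encode small subunits. petG (Pt, 65611 to 65724, plus strand) stood at 83.9, 63.8 and 22.7 CPM in CW and 5.01, 0.832 and 3.63 CPM in LW. Every LW library was far below every CW library, including CW3, and the level fell 18.0-fold (edgeR log2 fold change -4.17, SE 0.78, adjusted p = 0.0350). petL (Pt, 65352 to 65447, plus strand), directly before it, stood at 14.8, 8.95 and 4.41 CPM in CW and 0.898, 0.208 and 0.845 CPM in LW and fell 14.4-fold (edgeR log2 fold change -3.85, SE 0.75, adjusted p = 0.0389). In FPKM, petG ranked below ndhC alone in CW, at 393 ± 213, and petL stood at 77.2 ± 42.9 (SD, n = 3). petN, another small subunit, stood at 0.0525, 0.825 and 0.635 CPM in CW and 0.213, 0.0548 and 0.115 CPM in LW, and its groups overlapped through CW1 (edgeR log2 fold change -1.98, SE 1.32, adjusted p = 0.407). petA, for cytochrome f, stood at 19.4, 4.53 and 1.06 CPM in CW and 1.52, 0.0329 and 0.0104 CPM in LW, where LW1 exceeded CW3 (edgeR log2 fold change -4.01, SE 1.82, adjusted p = 0.228).

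The 2 large b6f genes petB and petD were nearly without counts. petB, for cytochrome b6, had 3, 1 and 1 counts in CW and 1, 1 and 1 counts in LW. petD, for subunit IV, was listed at 0 in every library. A nuclear row described as cytochrome b6-f complex subunit 4 (Zm00001d018162) carried 16.7, 4.31 and 2.15 CPM in CW and 0.365, 1.80 and 1.50 CPM in LW. That row is 1 of 15 nuclear rows whose descriptions name a plastid-encoded protein, a list drawn up after the values were seen. Another of them, described as CP47 (Zm00001d018163), carried 10.2, 2.41 and 0.670 CPM in CW and 0.883, 0.427 and 0.188 CPM in LW. Whether reads of plastid transcripts were counted on these nuclear rows was not tested. Of the 8 tested rows in this list 1 was called higher in LW, an ATP synthase beta row (Zm00001d043834) at 6.36, 4.33 and 15.1 CPM in CW and 75.9, 88.8 and 25.1 CPM in LW.

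NDH, the chloroplast complex that returns electrons to the plastoquinone pool in cyclic flow, was dominated by 1 gene. ndhC (Pt, 51855 to 52217, minus strand), a membrane subunit, stood at 1162, 1181 and 179 CPM in CW and 77.5, 19.2 and 62.6 CPM in LW. The groups did not overlap, CW3 lay well below CW1 and CW2, and the level fell 15.8-fold (edgeR log2 fold change -3.98, SE 0.85, adjusted p = 0.0451). Its counts were 44231, 52945 and 10422 counts in CW and 5089, 1752 and 6002 counts in LW, the most of any plastid gene in CW1, CW3, LW2 and LW3, while rbcL held the most in CW2 and LW1. In FPKM it averaged 1815 ± 1221 in CW and 144 ± 76.4 in LW (SD, n = 3). ndhK and ndhJ, which lie beside it on the same strand, averaged 22.3 and 7.09 FPKM in CW. Between ndhC and ndhK, 53 bases apart, the CW mean FPKM thus differed 81.4-fold.

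The other NDH genes were lower in level, and none of them was called. ndhA had the largest difference of the complex at 21.9, 5.60 and 1.27 CPM in CW and 0.350, 0.110 and 0 CPM in LW, with a count of 0 in LW3 (edgeR log2 fold change -5.99, SE 1.61, adjusted p = 0.0750). ndhK had the smallest at 32.4, 16.3 and 9.10 CPM in CW and 6.67, 1.83 and 5.89 CPM in LW, and its groups did not overlap (edgeR log2 fold change -2.01, SE 0.64, adjusted p = 0.106). The other tested NDH rows lay between, from -5.59 for ndhG to -2.44 for ndhB copy 1. At an unadjusted p under 0.05, 9 of the 11 tested NDH rows were lower, and DESeq2 called 10 of the 12. ndhE, which was not tested, had 143, 15 and 5 counts in CW and 0, 0 and 0 counts in LW. With a floor of 3 counts in each LW library, its CW mean was at least 38.1-fold higher, or at least 5.75-fold without CW1. In 7 of the 11 tested NDH rows all LW libraries lay below all CW libraries, against 14.9% of all tested genes. With the untested ndhE it was 8 of the 12 rows. The 2 copies of ndhB, summed, overlapped between the groups.

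ATP synthase makes ATP from the proton gradient, and its rotor gene atpH was the steepest of the 5 called genes. atpH (Pt, 34381 to 34626, plus strand), for the c subunit of the membrane ring, stood at 30.7, 11.8 and 2.21 CPM in CW and 0.563, 0.372 and 0.125 CPM in LW. The groups lay well apart, and the level fell 42.3-fold (edgeR log2 fold change -5.40, SE 1.09, adjusted p = 0.0417). The fold was 19.9 without CW1, and limma on log2(FPKM + 1) gave a log2 fold change of -3.78. Its neighbour atpF, for a stator subunit, had the highest mean FPKM and the smallest fold change of the complex at 53.0, 50.3 and 31.0 CPM in CW and 22.9, 6.22 and 15.5 CPM in LW. There the groups did not overlap but CW3 was close to LW1 (edgeR log2 fold change -1.59, SE 0.49, adjusted p = 0.0972). The atpF row overlaps a group II intron row of 88 shared bases, and that row alone carried 41.4, 43.3 and 21.3 CPM in CW and 14.1, 3.91 and 10.0 CPM in LW. Whether intron reads were counted on atpF was not tested. atpI, for the a subunit, stood at 40.7, 12.0 and 1.60 CPM in CW and 1.14, 0.635 and 1.25 CPM in LW, without overlap (edgeR log2 fold change -4.16, SE 1.08, adjusted p = 0.0693). The catalytic subunits behaved less uniformly. atpA, for the alpha subunit, stood at 91.8, 47.9 and 15.0 CPM in CW and 19.9, 6.55 and 10.7 CPM in LW, with CW3 below LW1 (edgeR log2 fold change -2.06, SE 0.69, adjusted p = 0.120). atpB, for the beta subunit, stood at 36.6, 1.92 and 0.258 CPM in CW and 1.57, 0.263 and 0.0731 CPM in LW with CW3 below LW1 and LW2 (edgeR log2 fold change -4.36, SE 1.87, adjusted p = 0.205). It shares 4 bases with atpE, for the epsilon subunit, at 5.59, 0.625 and 0.343 CPM in CW and 0.487, 0 and 0.198 CPM in LW.

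rbcL, for the large subunit of the carbon-fixing enzyme Rubisco, was first or next to ndhC in counts in every CW library and varied widely within both groups. It stood at 738, 1252 and 162 CPM in CW and 158, 6.57 and 14.0 CPM in LW. CW3 and LW1 were nearly equal, LW2 and LW3 were far lower, and the difference was not called (edgeR log2 fold change -3.59, SE 1.32, adjusted p = 0.149). In FPKM it averaged 391 ± 289 in CW and 39.5 ± 55.6 in LW (SD, n = 3). Its nuclear partners, the 2 Rubisco small-subunit rows, summed to 20599.6, 25137 and 4404 CPM in CW and 1313, 894 and 1850.2 CPM in LW. CW3 was low there too, at 19.3% of the mean of CW1 and CW2, and edgeR called both rows lower. Rubisco genes are bundle sheath genes in maize, and the bundle sheath marker sums given above include these 2 rows.

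Among the other genes with a symbol, 9 of 17 rows were tested and edgeR called 0, against 2.4% of all tested genes. At an unadjusted p under 0.05, 6 were lower, against 11.4%. DESeq2 called 5 of the 17, against 7.65% of all genes with an adjusted p. cemA (an envelope protein) stood at 13.0, 8.03 and 1.61 CPM in CW and 0.776, 0 and 0.0626 CPM in LW, matK (a splicing factor) at 26.0, 2.41 and 2.35 CPM in CW and 0.852, 0.569 and 0.929 CPM in LW and clpP (a protease subunit) at 9.72, 6.29 and 2.47 CPM in CW and 1.66, 0.339 and 1.75 CPM in LW, all 3 without overlap. infA, for a translation initiation factor, stood at 23.7, 15.6 and 8.74 CPM in CW and 4.57, 0.964 and 5.05 CPM in LW. ccsA, which acts in cytochrome c assembly, stood at 4.86, 3.08 and 1.67 CPM in CW and 2.27, 0.110 and 0.470 CPM in LW, with LW1 above CW3. The matK row lies inside a longer tRNA row, so its counts may include the tRNA precursor. ycf68 copy 2 had the largest difference at 35.3, 1.94 and 0.481 CPM in CW and 0.289, 0.110 and 0.146 CPM in LW, nearly all of it in CW1 (edgeR log2 fold change -6.11, SE 1.66, adjusted p = 0.0764), and it lies wholly within a tRNA row. ycf72 copy 2 had the smallest at 1.02, 0.781 and 0.103 CPM in CW and 0.502, 0.0657 and 0.397 CPM in LW (edgeR log2 fold change -0.98, SE 1.26, adjusted p = 0.681), with overlapping groups. The 8 rows that were not tested, ycf70, ycf72 copy 1 and both copies of ycf15, ycf73 and ycf76, reached 0.670 CPM at most.

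The plastid RNA polymerase genes were low per length, at 0.113 to 6.09 mean FPKM in CW. As a sum they varied 2.26-fold among the CW libraries and 3.61-fold among the LW libraries. Their sum was 24.8, 25.0 and 11.1 CPM in CW and 9.18, 2.54 and 6.13 CPM in LW. rpoC2 (the beta'' subunit) stood at 11.7, 10.6 and 1.56 CPM in CW and 1.28, 0.602 and 1.34 CPM in LW, with CW3 only just above LW3 (edgeR log2 fold change -2.89, SE 0.80, adjusted p = 0.0793). rpoC1 (the beta' subunit) stood at 5.20, 5.58 and 1.37 CPM in CW and 0.670, 0.285 and 0.783 CPM in LW, without overlap (edgeR log2 fold change -2.80, SE 0.78, adjusted p = 0.0793). rpoA, for the alpha subunit, had the highest mean FPKM and the smallest difference at 7.64, 7.90 and 7.93 CPM in CW and 7.09, 1.62 and 3.77 CPM in LW. The 3 CW libraries were nearly equal and LW1 was close to them (edgeR log2 fold change -0.91, SE 0.55, adjusted p = 0.352). rpoB (the beta subunit), the lowest of the 4 by FPKM, stood at 0.263, 0.959 and 0.206 CPM in CW and 0.137, 0.0329 and 0.240 CPM in LW, and its groups overlapped (edgeR log2 fold change -1.78, SE 1.26, adjusted p = 0.434). None of the 4 was called by edgeR, 2 were lower at an unadjusted p under 0.05 and DESeq2 called those 2.

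Most nuclear sigma factor genes for this polymerase fell in LW. Sigma factors, which direct it to promoters, summed to 1146, 1771 and 1215 CPM in CW and 482, 461 and 428 CPM in LW over 7 rows, and edgeR called 4 of the 7 lower. sigma-like factor6 fell most, at 457, 685 and 496 CPM in CW and 133, 126 and 102 CPM in LW (edgeR log2 fold change -2.18, SE 0.29, adjusted p = 0.0212). The other 3 called rows were sigma factor 1A (edgeR log2 fold change -1.70, SE 0.35, adjusted p = 0.0426), the sigC row (edgeR log2 fold change -1.80, SE 0.37, adjusted p = 0.0428) and sigma-like factor2B (edgeR log2 fold change -1.05, SE 0.22, adjusted p = 0.0451). sigma factor 1B just missed the threshold (edgeR log2 fold change -1.40, SE 0.33, adjusted p = 0.0551). Among the CW libraries the sigma factor sum varied 1.55-fold, against 2.26-fold for the polymerase genes and 6.14-fold for all plastid rows. Of 11 rows for proteins of the plastid transcriptionally active chromosome, 1 was called lower, number 16 (Zm00001d009877, edgeR log2 fold change -2.48, SE 0.43, adjusted p = 0.0314), and the median log2 fold change was -0.26. All 12 rows described as the phage-type chloroplast RNA polymerase were listed at 0 in every library, so that polymerase was not measured.

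Ribosomal protein genes held 1 called gene, and the large-subunit rows had the smallest median difference of the complexes. Small-subunit rows summed to 223, 139.7 and 90.5 CPM in CW and 48.3, 12.6 and 35.1 CPM in LW and large-subunit rows to 37.5, 14.8 and 12.9 CPM in CW and 9.45, 3.06 and 5.80 CPM in LW. Their median log2 fold changes were -2.58 over 12 tested rows and -1.91 over 8, against -3.93 for cytochrome b6f. rps4 (Pt, 47157 to 47762, minus strand) stood at 15.0, 13.6 and 10.7 CPM in CW and 4.05, 1.83 and 2.83 CPM in LW. The CW libraries lay close together, LW was lower throughout, and the level fell 4.51-fold (edgeR log2 fold change -2.17, SE 0.40, adjusted p = 0.0349), with the smallest standard error of the 5 called genes. rps14 had the largest difference of the small subunit at 32.4, 13.4 and 1.36 CPM in CW and 1.39, 0.307 and 0.491 CPM in LW, but CW3 lay just below LW1 (edgeR log2 fold change -4.44, SE 1.17, adjusted p = 0.0715). rps2 stood at 40.1, 53.4 and 16.4 CPM in CW and 10.4, 2.03 and 8.02 CPM in LW (edgeR log2 fold change -2.43, SE 0.68, adjusted p = 0.0795).

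In the large subunit, rpl14 had the largest difference at 7.56, 0.915 and 0.841 CPM in CW and 0.502, 0.164 and 0.334 CPM in LW (edgeR log2 fold change -3.21, SE 1.12, adjusted p = 0.130), with CW2 and CW3 close to LW1. rpl33 stood at 4.78, 2.70 and 1.43 CPM in CW and 0.411, 0.197 and 0.397 CPM in LW, steadier and without overlap (edgeR log2 fold change -3.14, SE 0.78, adjusted p = 0.0635). rpl36, with the highest mean FPKM of the large subunit, stood at 6.91, 0.335 and 6.85 CPM in CW and 3.23, 1.22 and 3.46 CPM in LW, where CW2 was the lowest library (edgeR log2 fold change -0.83, SE 0.99, adjusted p = 0.653), and limma on log2(FPKM + 1) gave 0.17. rpl16 had the smallest difference at 0, 1.09 and 0 CPM in CW and 0.472, 0.208 and 0.303 CPM in LW, with CW1 and CW3 at 0 (edgeR log2 fold change -0.15, SE 1.97, adjusted p = 0.973). rps16, not tested, was counted in 1 library of each group only, with 0, 0 and 40 counts in CW and 0, 0 and 100 counts in LW. It was picked out after its values were seen.

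Of the 18 rows without a symbol 7 were tested and edgeR called 0, against 2.4% of all tested genes. At an unadjusted p under 0.05, 3 were lower, against 11.4%. DESeq2 called 3 of the 18, against 7.65% of all genes with an adjusted p. ZemaCp158 had the largest difference at 5.49, 1.14 and 0.206 CPM in CW and 0.0913, 0.230 and 0.115 CPM in LW (edgeR log2 fold change -3.95, SE 1.31, adjusted p = 0.119), and it lies within a tRNA row. ZemaCp072 had the smallest at 1.13, 1.16 and 0.0515 CPM in CW and 0.441, 0.0986 and 0.167 CPM in LW, with CW3 the lowest library (edgeR log2 fold change -1.72, SE 1.34, adjusted p = 0.479). The 11 untested rows reached 1.14 CPM at most. Of the 4 rows listed at 0 throughout, 3 are here (ZemaCp068, ZemaCp069 and ZemaCp107), and the other is petD.

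Counts on the inverted repeat were split unevenly between the copies, so single-copy values there are uncertain. By coordinates 19 pairs of rows, 38 rows in all, mirror each other. rps7 copy 1 (Pt, 91772 to 92242) had 27, 408 and 31 counts in CW and 306, 164 and 333 counts in LW. Its copy 2 (Pt, 130495 to 130965) had 2657, 474 and 1510 counts in CW and 334, 177 and 365 counts in LW. Copy 1 therefore held 1.01% of the pair in CW1 and close to an equal part in each LW library. Taken alone, copy 2 just missed the threshold (edgeR log2 fold change -3.29, SE 0.74, adjusted p = 0.0505) and copy 1 showed next to no difference (edgeR log2 fold change -0.06, SE 1.09, adjusted p = 0.981). Summed, the pair stood at 70.5, 19.7 and 26.5 CPM in CW and 9.74, 3.73 and 7.28 CPM in LW, without overlap. The ndhB pair summed to 65.0, 9.66 and 1.15 CPM in CW and 2.53, 0.88 and 1.95 CPM in LW, where CW3 lay below LW1 and LW3. rpl2 and rpl23 had a copy at 0 in at least 1 library. Of the 19 pairs, only rps19, rps7, rps15 and the unnamed pair ZemaCp081 and ZemaCp094 had sums that did not overlap between the groups. In all of these LW lay below CW, an order that held for 14.9% of all tested genes. The pair ZemaCp068 and ZemaCp107 was at 0 throughout and could not separate. So few pairs do not set the repeat apart from other genes.

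Many neighbouring plastid genes are transcribed together as operons, but the pairs below were taken by position and strand alone. Whether the genes of a pair share a transcript was not tested. Neighbours so taken often stood at different levels. Over 48 pairs of adjacent tested rows on the same strand, the FPKM of the higher gene in CW was a median of 2.45 times that of the lower, and it was more than 10 times in 5 pairs. The widest gap was 434-fold, between ndhC and atpE, which lie 1990 bases apart. The log2 fold changes of neighbours were weakly alike (Pearson's r 0.366, Spearman's rho 0.400 over 48 pairs that share genes and libraries). In the run from rps2 to atpA the 5 genes had log2 fold changes of -2.43, -4.16, -5.40, -1.59 and -2.06. In the run petL, petG and psaJ the values were -3.85, -4.17 and -2.59. The tRNA rows just beyond petG were among the few non-coding plastid rows that were called. trnP (Pt, 66056 to 66129) stood at 165, 188 and 49.5 CPM in CW and 14.1, 3.01 and 8.78 CPM in LW (edgeR log2 fold change -3.96, SE 0.73, adjusted p = 0.0345). trnW (Pt, 65845 to 65918), which the table lists under 2 identifiers, stood at 34.0, 35.2 and 8.28 CPM in CW and 2.04, 0.558 and 1.50 CPM in LW (edgeR log2 fold change -4.24, SE 0.74, adjusted p = 0.0314). In both, as in petG, no LW library reached the level of CW3.

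**Figure D4:**
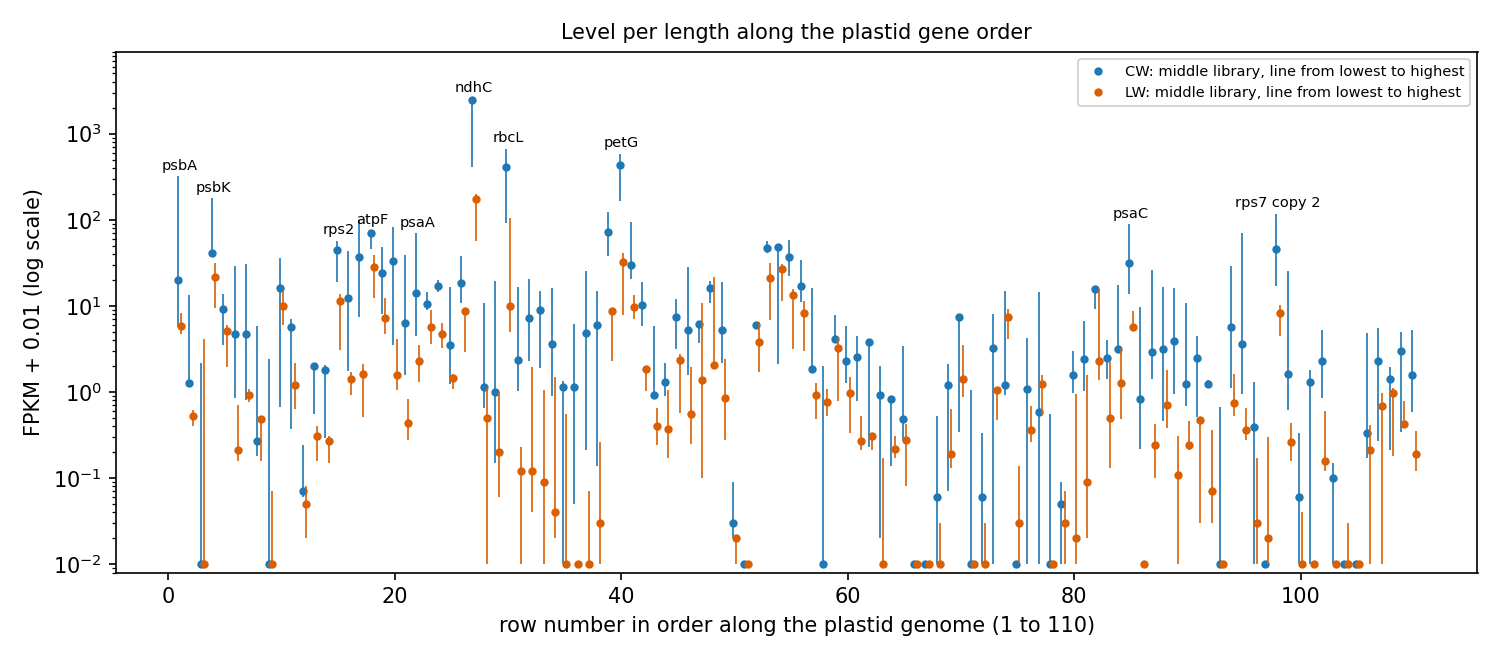
FPKM + 0.01 (log scale) of the 110 plastid rows in their order along the genome; points are the middle library of each group and lines run from its lowest to its highest library. ndhC, rbcL and petG rise far above their neighbours in CW, and ndhC also in LW.

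Taken as shares of each library's plastid total, 4 of 11 classes did not overlap between the groups, with only 3 libraries a group. ATP synthase rows made 6.56%, 4.04% and 7.87% of plastid counts in CW and 10.8%, 16.1% and 13.5% in LW. RNA polymerase rows made 0.631%, 0.811% and 1.73% in CW and 2.12%, 2.91% and 2.98% in LW. Large-subunit ribosomal rows made 0.952%, 0.481% and 2.01% in CW and 2.18%, 3.50% and 2.82% in LW. In all 3 classes every LW library was above every CW library. Cytochrome b6f rows went the other way, at 3.00%, 2.53% and 4.51% in CW and 1.77%, 1.31% and 2.24% in LW. Each of these 4 had an exact two-sided permutation p of 0.1, the smallest possible, or 0.275 with Benjamini-Hochberg adjustment over the 11 classes. The sizes depended on the unit. In percentage points, LW minus CW was 7.30 for ATP synthase by counts and 3.80 by summed FPKM, 1.61 and 0.618 for RNA polymerase, 1.69 and 4.70 for the large ribosomal subunit and -1.58 and -6.57 for b6f, with no overlap by either unit. Without ndhC, rbcL and psbA the same 4 classes did not overlap, with b6f rows at 7.36%, 12.5% and 9.87% in CW and 3.99%, 2.14% and 3.75% in LW. The shift was not shared by every row of a class. atpF made 1.35%, 1.63% and 4.83% of plastid counts in CW and 5.29%, 7.13% and 7.51% in LW. atpH overlapped, at 0.781%, 0.384% and 0.346% in CW and 0.130%, 0.427% and 0.0608% in LW. rpoA made 0.194%, 0.256% and 1.24% in CW and 1.64%, 1.86% and 1.83% in LW. petG made 2.13%, 2.07% and 3.55% in CW and 1.16%, 0.954% and 1.76% in LW. The shares of photosystem I, photosystem II and NDH rows overlapped between the groups. Shares of 1 library sum to 100%, so these are not independent.

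Nuclear genes of the same complexes were lower in LW as well and were far more even among the CW libraries. The 15 nuclear photosystem I rows summed to 52144, 54743 and 45542 CPM in CW and 9645, 6514 and 6130.3 CPM in LW. Of these, edgeR called 15 of 15 lower (median log2 fold change -2.77), where 2.4% of all tested genes were called lower. Their CW libraries spanned 1.20-fold, where the plastid photosystem I rows spanned 13.9-fold. Nuclear photosystem II rows summed to 12052, 15775 and 14597 CPM in CW and 3804, 4317 and 3193 CPM in LW, with 12 of 20 tested rows called lower and a CW range of 1.31-fold against 22.9-fold. The 4 nuclear b6f and plastocyanin rows summed to 3677, 5027 and 3734 CPM in CW and 1408, 1205 and 1392 CPM in LW, and 4 of 4 were called lower. Nuclear NDH rows summed to 24239, 25112 and 16133 CPM in CW and 6701, 3659 and 5986 CPM in LW, with 14 of 22 called lower. Nuclear chloroplast ATP synthase rows summed to 3376, 3142 and 4003 CPM in CW and 1348, 1182 and 1082 CPM in LW, with 3 of 5 tested rows called lower. CW3 stood at 85.2% of the mean of CW1 and CW2 for nuclear photosystem I, at 105% for photosystem II, 85.8% for b6f, 65.4% for NDH and 123% for ATP synthase. The low plastid levels of CW3 thus had no parallel of that size in these nuclear lists, while the Rubisco small subunits did. The difference between plastid and nuclear rows was not tested.

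**Figure D5:**
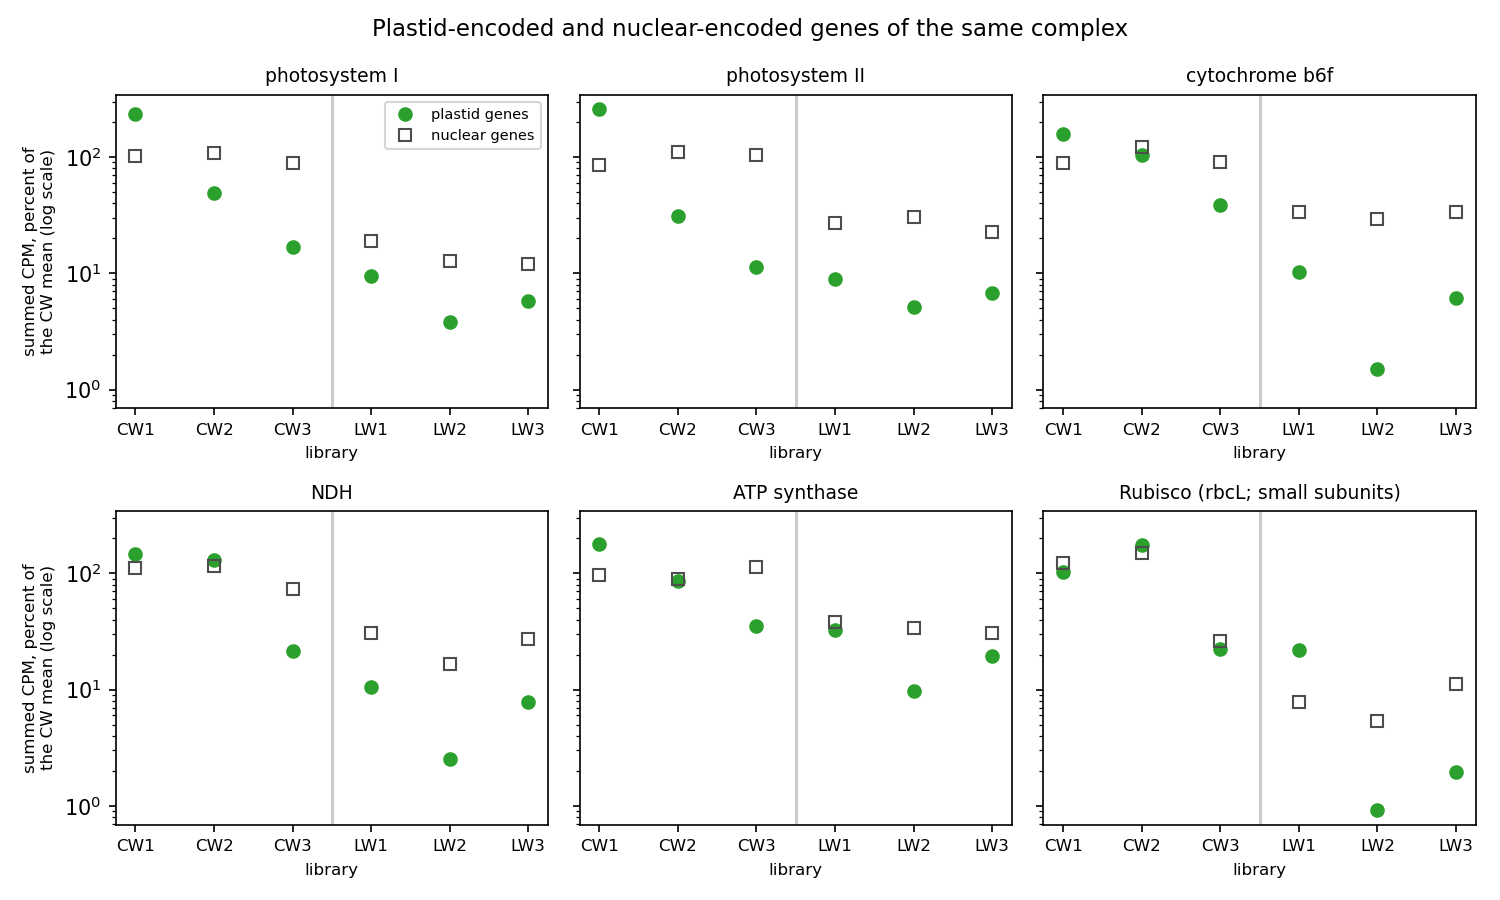
Summed CPM of plastid genes (filled circles) and nuclear genes (open squares) of the same complex in each library, as percent of the CW mean (log scale). Nuclear sums span at most 1.56-fold across CW1 to CW3, with NDH lowest in CW3, except for the Rubisco small subunits at 5.71-fold, while plastid sums are lower in CW3 than in CW1 in every panel.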

How the data were processed

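Leaf RNA was sequenced in 3 CW and 3 LW libraries, grouped by the titles of the labels. The source name of the library titled as replicate 2 of CW carries the number of repeat 3, and the title was followed. Per the file headers, the deposited table gives for each gene a count and an FPKM value in each library. The deposited counts are whole numbers and were treated as estimated counts, since between 28.6% and 31.4% of the values from 1 to 40 in each library are multiples of 4. The deposited FPKM values, reads per length and library size, were used as given. Per the submitters' processing notes, edgeR, StringTie 1.3.4, HISAT2 2.0 and FastQC 0.10.1 were used, with no roles stated. The genome build, annotation, strandedness and treatment of multiply mapped reads were not given in the sources used here, so reads of genes that overlap or that have near-identical copies, in the inverted repeat or in the nucleus, may have been split or lost. The labels' protocol also names an adipose type of sample, which does not match leaf.

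edgeR 4.0.16 (R 4.3.3) was run on the counts as deposited with filterByExpr, TMM factors and the quasi-likelihood test on group alone. It kept 24704 genes, and p-values were adjusted over all of them by Benjamini-Hochberg, with a threshold of 0.05. The design had named edgeR for counts, and it was kept for estimated counts. Alternatives were RLE factors, library totals alone, no low-count filter, DESeq2 1.42.0, limma 3.58.1 on log2(FPKM + 1) and log2(FPKM + 0.1) for genes whose mean FPKM reached 1 in either group or without that filter, the replicate number as a block, and leaving out each library. Folds understate low genes on the limma scales. Shares, sums and exact permutation tests used Python 3.11.15, pandas 2.3.3 and SciPy 1.17.1. A fold against a group at 0 used a floor of 3 counts in each library, which covers counting error only. The edgeR fit was also run on counts simulated with the fitted dispersions. It called 0, 6, 22 and 35 of 50 genes set 2, 4, 8 and 16 times lower. A row that was not called may therefore still differ. The changed genes were drawn from all tested genes, whose median coefficient of variation was 0.451, against 0.891 for the plastid rows. These counts thus do not measure how often a plastid row with such a change would be called.

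Every plastid row could be named. Full values are given for each called row and, in each complex, for the row with the highest mean FPKM and the tested rows with the largest and smallest fold change, and others were added to cover each complex. A result that the rule would name is not reported here. Complexes follow gene symbols. All 110 rows matched a RefSeq locus tag and 92 had a gene symbol, and that table served for names only. Nuclear lists were drawn by words in names and descriptions, with exclusions made after reading the matched names. The rows and lists were chosen with earlier results of these data known.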

Additional observations from a re-analysis of the deposited data

How the results depend on the processing

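The count of 5 plastid rows called lower was 5 with RLE factors and with library totals alone, 7 without the low-count filter, 53 with DESeq2, 9 with limma on log2(FPKM + 1), 10 on log2(FPKM + 0.1) and 5 on log2(FPKM + 1) without a filter, of which 3 were shared. Leaving out 1 library gave 0 to 30. With the replicate number as a block the count was 0. At an unadjusted p under 0.05, 43 rows were lower with the block, against 8.54% of all tested genes. The edgeR adjusted p-values with the block were 0.0668 for atpH, 0.133 for ndhC, 0.0885 for petG, 0.0998 for petL and 0.0971 for rps4. The numbers were not taken as pairing the samples, since deviations of same-numbered libraries correlated at -0.036, 0.004 and -0.24.

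The median log2 fold change of the plastid rows was -1.42 with limma on log2(FPKM + 1) and -1.27 without its filter. By complex, limma on log2(FPKM + 1) gave -1.66 for photosystem I assembly, -1.49 for NDH, -1.40 for ATP synthase and -1.29 for the small ribosomal subunit, each with and without the filter. It gave -0.84 (-0.73 without the filter) for RNA polymerase and -1.03 (-0.50) for unnamed rows. Without the filter it gave -1.95 for cytochrome b6f, -0.80 for the large ribosomal subunit and -0.64 for the other named rows. Leaving out 1 library gave medians of -4.46 to -2.20 for photosystem I, -4.45 to -2.15 for its assembly factors, -4.23 to -1.54 for photosystem II, -4.31 to -1.40 for ATP synthase and -3.27 to -1.33 for the large ribosomal subunit. The pseudocount of 1 shrinks the folds of low rows by its construction, and for the other changes the cause was not tested.

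The share of plastid counts, LW minus CW in percentage points, moved with summed FPKM to -6.57 for b6f, -13.1 for NDH, 3.80 for ATP synthase, 0.618 for RNA polymerase, 4.70 for the large ribosomal subunit and 0.701 for unnamed rows. Without ndhC it was -2.52 for b6f and 1.54 for NDH. Without ndhC, rbcL and psbA, chosen after seeing the data, it was -5.77 for photosystem I, -6.63 for b6f, -0.605 for NDH and 0.000986 for unnamed rows.

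Of the rows that the naming rule picked, rpl36, rpl16 and rps7 copy 1 changed direction, and none of the 3 was called. Outside the rule, psbM (log2 fold change -1.10) gave 0.07 with limma at a pseudocount of 1, 0.35 at 0.1 and 0.0045 without CW2, and ZemaCp157 (-2.55) gave 0.15 at 0.1 and 1.39 without CW2. The log2 fold change of rpl36 was 0.17, 0.29 and 0.17 with limma at pseudocounts of 1 and 0.1 and without the filter. That of rpl16 was 0.23 with library totals, 0.29 with limma without the filter, 4.02 with the replicate block and from -0.74 (without CW3) to 7.52 (without CW2) when 1 library was left out, with 0.12 without LW2. That of rps7 copy 1 was 0.31 with library totals, 0.92, 1.31 and 0.92 with limma in the same order, 1.35 with the block and from -0.57 (without CW3) to 2.42 (without CW2) when 1 library was left out, with 0.27 without LW2. Of the alternative values of counts, medians and shares, 286 lay within the replicate spread (for counts, within 1.5 times) and 44 outside it. Of those of the named rows, 332 kept direction and side of the threshold, 32 lost the call, 25 gained one and 15 changed direction. The 33 rows below the low-count filter have no edgeR test.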
